A study of Mus musculus with 2 samples.

Results

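The immediate early genes and the feedback genes of the MAP kinase pathway were examined in primary mouse keratinocytes with and without the label of a MED1 deletion. The set was defined as 35 genes by symbol, and every probe set of the array that carries one of these as its only gene symbol was taken, 71 probe sets in all. The array holds 18193 genes named in this way, and 34 of the 35 were measured on at least 1 of the 2 arrays. The MED1-null-labelled array held RNA of cultured keratinocytes from newborn C57BL/6 mice that combine MED1flox/flox with K5Cre, a Cre recombinase expressed from the keratin 5 promoter, which is active in basal keratinocytes. The control array held RNA of keratinocytes from newborn C57BL/6 mice, titled MED1flox/flox, sourced to wild-type animals and named a littermate in the study's title. Both were primary cultures grown on collagen I in the same medium, with no agent added per the labels, and the number of animals behind each culture is not stated. The study has 1 array per group, so neither a test nor a spread over cultures can be given, and this number limits the precision of every value. MED1 belongs to Mediator, the complex that connects DNA-bound transcription factors to RNA polymerase II.

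Immediate early genes are transcribed within minutes of a growth factor, serum or stress signal, without new protein synthesis, because the factors that switch them on are already in the cell and are activated by phosphorylation. In keratinocytes, the EGF receptor signals through Ras, Raf, MEK and ERK to the serum response factor and its ETS partners at these genes. A part of the products are transcription factors (FOS, JUN and EGR proteins), and others shut the signal down again: DUSP phosphatases remove phosphate from MAP kinases, and Sprouty and SPRED proteins act on the pathway around Ras and Raf.

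The values were MAS5 signals, 1 per probe set, where a probe set summarises several short probes against 1 transcript. Signals below 67.7, the median over both arrays without control probe sets, were raised to that floor. A gene below it on both arrays was called not measured. Each gene is given by its probe set with the highest mean signal, and log2 ratios are those of the MED1-null-labelled array over the control array. Ratios of different probe sets of the same gene had a pooled SD of 0.31 log2 units, or 1.24-fold, over 4916 genes. This SD is the only error that the data give, and it does not cover the spread between cultures.

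The targeted gene was not lower under the MED1-null label. Med1 read 1039 on the MED1-null-labelled array and 462.7 on the control array, and all 7 of its probe sets were higher on the first of these. The labels do not say which part of the gene is deleted, and a probe set outside that part checks nothing. Xist read 55.7 on the MED1-null-labelled array and 5461 on the control array, and the Y-linked Eif2s3y read 2164 and 4.2 on the same arrays. Genotype label, sex-linked transcripts, culture and array therefore cannot be told apart, although none of the 35 genes lies on X or Y. The 3′ over 5′ signal ratios of the control probe sets were alike, at 0.767 and 0.762 for Gapdh and 1.14 and 1.13 for beta-actin on the MED1-null-labelled array and the control array. Of 12 keratinocyte markers with a probe set, 10 were measured, Krt14 at 36849 and 32905, and Krt1 and Krt15 were below the floor on both arrays. Summed signals of other cell types were lower on the MED1-null-labelled array for fibroblast markers (1535 against 3476 over 10 genes, 6 measured) and for melanocyte markers (20632 against 28536 over 9 genes, all measured). Most of the fibroblast sum was Sparc (1034 against 2709), which other cell types express as well. Col3a1 and Dcn were below the floor on the MED1-null-labelled array and at 120.8 and 118.1 on the control array, Col1a1 was below it on both, and Col1a2 was higher (115.3 against 80.3). Merkel cell markers summed to 5926 and 7887 over 5 genes, 3 of them measured, and nearly all of this was Krt8 and Krt18. The defining Merkel markers Krt20 and Chga were below the floor on both arrays, and Atoh1 read 80.1 and 52.9. Immune markers summed to 311.1 and 295.7 over 10 genes, and endothelial markers to 216.8 and 280.2 over 6 genes. In each of these lists 2 genes were measured. The defining immune markers Ptprc and Cd207 and the endothelial markers Pecam1 and Cdh5 were below the floor on both arrays. The part of these cell types in the values below was not tested.

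As a set, the 35 genes did not go one way. Of the 34 measured, 18 had a log2 ratio above 0 and 16 below, with a median of 0.16, against 0.06 over all 11621 measured genes. Egr2, a zinc finger transcription factor, was the only member at least 2-fold higher on the MED1-null-labelled array, where 1.63% of all measured genes were. Dusp4, a nuclear MAP kinase phosphatase, was the only one at least 2-fold lower, where 2.23% of all measured genes were. With 1 gene each, or 2.94% of the 34, both counts are near that background. At a threshold of 1.5-fold, 7 members (20.6%) were higher, against 7.8% of all measured genes, and 4 (11.8%) were lower, against 7.32%. The 7 were Egr1, Egr2, Egr3, Klf10, Btg2, Dusp6 and Etv4, and the 4 were Jund, Klf2, Dusp4 and Etv5. With 2 arrays these shares describe the pair, and they were not tested. Only Dusp2 was measured through a single array.

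**Figure D1:**
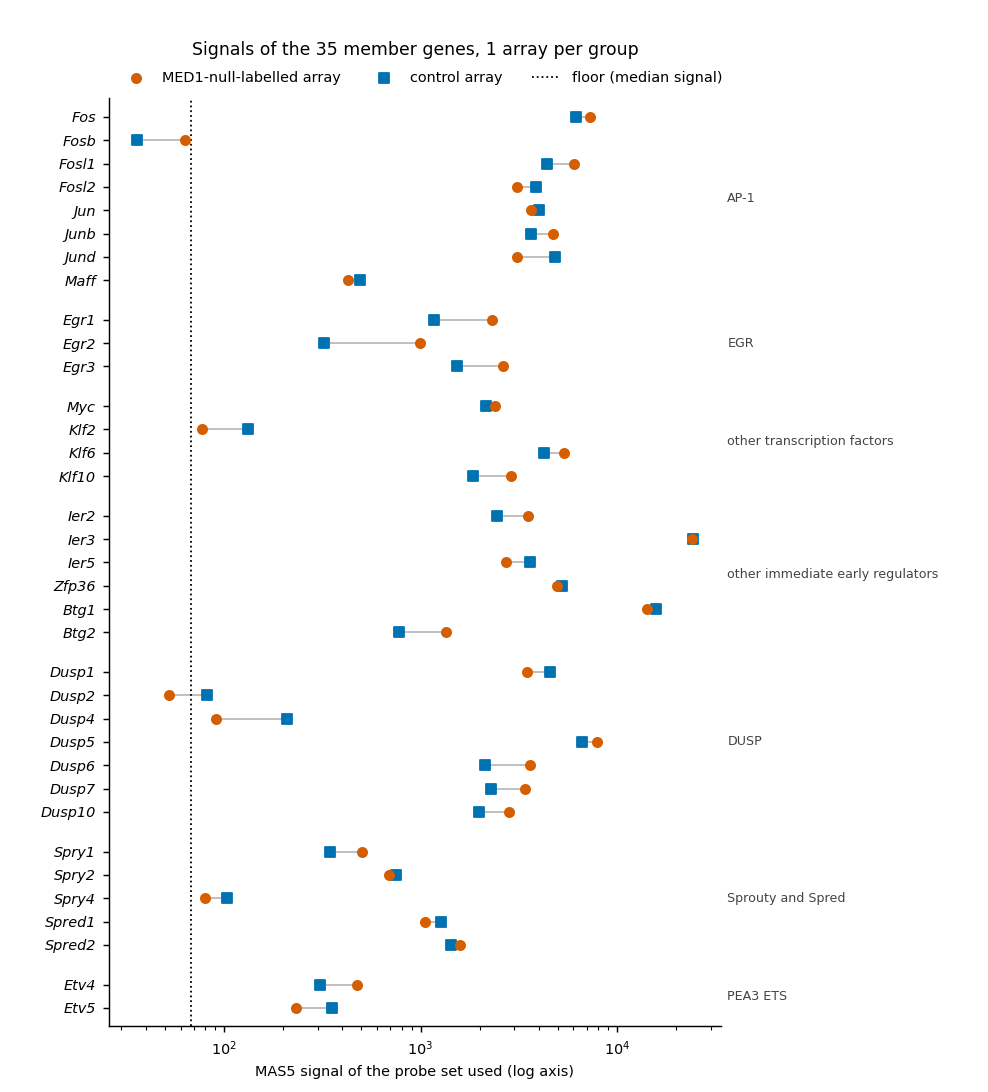
MAS5 signal of the 35 genes on a log axis, with the MED1-null-labelled array as circles and the control array as squares, 1 array each, and the floor of 67.7 as a dotted line. Egr1, Egr2 and Egr3 lie to the right on the MED1-null-labelled array, Dusp4 and Klf2 lie to the left, and Fosb is below the floor on both arrays.

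Egr1, Egr2 and Egr3 made up the one class of members whose genes were all higher on the MED1-null-labelled array. They encode zinc finger transcription factors that bind GC-rich DNA and are switched on through the serum response factor. Egr2 (gene at chr10:67534469-67542188 of GRCm38.p6) read 999.2 on the MED1-null-labelled array and 322.5 on the control array, 3.10-fold higher. Its second probe set gave 660.9 and 236.8, so that both probe sets put the gene well beyond 2-fold, with log2 ratios of 1.63 and 1.48. Egr1, the best known inducible member, read 2313 and 1173, 1.97-fold higher and just short of the 2-fold threshold. Egr3 (chr14:70077317-70082613) read 2643 and 1527, 1.73-fold higher. Egr1 rests on 1 probe set, and the second Egr3 probe set was below the floor on both arrays, at 41.4 and 29.2, so that neither has a second measurement. Egr4, the EGR gene outside the set, read 105.8 on the MED1-null-labelled array and 114.7 on the control array, a log2 ratio of -0.12 that is smaller than the pooled SD between probe sets. The median log2 ratio of the 3 members was 0.98, and it lay between 0.92 and 0.99 under 8 alternative floors, scalings and probe set choices. This median is the value of Egr1, which has 1 probe set and signals above every floor, so only the rescalings could move it. Under the same alternatives Egr2 ran from 1.20 to 1.63 and Egr3 from 0.73 to 0.80. Egr2 was lowest where the floor, 434.6, lay above its control signal.

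Sequence upstream of the members' start sites was examined for the elements through which such genes are known to respond. RefSeq windows of GRCm38.p6 were found for 26 of the 35 genes, and the 250 bases before each start were searched on both strands. No window was at hand for Egr1, Egr3, Myc, Klf10, Dusp4, Spry4, Fosl1, Ier2 and Etv4. These genes were not searched, so nothing is said here on their elements. A CArG box, the site of the serum response factor, is shown in capitals in Egr2, which was higher, and in Dusp5 and Zfp36, which were close to equal on the arrays. The palindromic cAMP response element TGACGTCA is shown in capitals in Btg2, which was higher, and in Dusp1, which was lower. All sequences run 5′ to 3′ on the strand of the gene and end at the base before the start.
Egr2, chr10:67537619-67537868, plus strand: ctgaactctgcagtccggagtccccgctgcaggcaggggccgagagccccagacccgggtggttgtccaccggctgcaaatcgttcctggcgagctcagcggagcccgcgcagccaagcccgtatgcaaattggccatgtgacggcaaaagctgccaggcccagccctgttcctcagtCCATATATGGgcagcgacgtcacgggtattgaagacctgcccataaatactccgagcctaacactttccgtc
Dusp5, chr19:53528895-53529144, plus strand: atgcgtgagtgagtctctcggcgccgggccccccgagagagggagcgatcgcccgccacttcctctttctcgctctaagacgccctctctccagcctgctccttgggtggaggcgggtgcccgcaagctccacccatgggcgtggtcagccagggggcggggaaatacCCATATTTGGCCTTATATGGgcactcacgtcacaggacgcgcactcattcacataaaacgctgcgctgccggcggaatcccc
Zfp36, chr7:28379229-28379478, minus strand: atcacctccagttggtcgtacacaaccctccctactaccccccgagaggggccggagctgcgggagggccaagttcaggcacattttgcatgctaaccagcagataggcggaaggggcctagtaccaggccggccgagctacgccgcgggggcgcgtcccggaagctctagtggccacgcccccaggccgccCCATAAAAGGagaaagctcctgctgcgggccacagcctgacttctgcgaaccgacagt
Btg2, chr1:134079156-134079405, minus strand: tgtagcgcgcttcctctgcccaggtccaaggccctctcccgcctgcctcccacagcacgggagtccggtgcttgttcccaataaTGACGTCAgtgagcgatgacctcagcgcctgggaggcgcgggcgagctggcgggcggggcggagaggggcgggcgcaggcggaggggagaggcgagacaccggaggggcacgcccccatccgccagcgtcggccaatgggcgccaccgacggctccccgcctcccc
Dusp1, chr17:26508473-26508722, minus strand: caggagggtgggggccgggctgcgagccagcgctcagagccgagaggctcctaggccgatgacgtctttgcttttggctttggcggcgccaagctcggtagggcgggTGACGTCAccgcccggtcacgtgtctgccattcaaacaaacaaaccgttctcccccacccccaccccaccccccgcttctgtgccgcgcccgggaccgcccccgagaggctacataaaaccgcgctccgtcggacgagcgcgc
Egr2 has 5 annotated windows, and the one shown holds the CArG box at -72 that most of them share. In Dusp5, 2 CArG boxes stand side by side, the first at -82 and the second at -72, while Zfp36 has 1 at -58. These 3 genes are 11.5% of the 26, against 1.62% of 27025 genes with a window, and their log2 ratios were 1.63, 0.26 and -0.08. The element TGACGTCA was found in 3 genes as well, Btg2, Dusp1 and Maff, which is 11.5% against 1.77% of all genes, with log2 ratios of 0.80, -0.40 and -0.20. Genes sharing TGACGTCA thus lay on both sides of 0. Among the CArG box genes only Zfp36 was below 0, and the ratios of Zfp36 and Dusp5 were smaller than the pooled SD of 0.31. The EGR motif GCGNGGGCG, where N is any base, was found in 7 genes (26.9% against 5.33%), and the AP-1 motif TGANTCA in none of the 26 (7.82% of all genes), which says only that these letters are not in these windows. Of the 7 with the EGR motif, Btg2 was higher, Fosb was not measured, and Dusp2, Fosl2, Klf2, Maff and Zfp36 had ratios below 0. No match of one motif overlapped that of another. The windows of members had a median GC content of 64.2%, against 60.0% for measured genes, and the part of base composition in these shares was not tested. A match is a description and not evidence of binding. Sequence farther upstream than 250 bases was not searched, so a member without a match here may still hold the element.

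**Figure D2:**
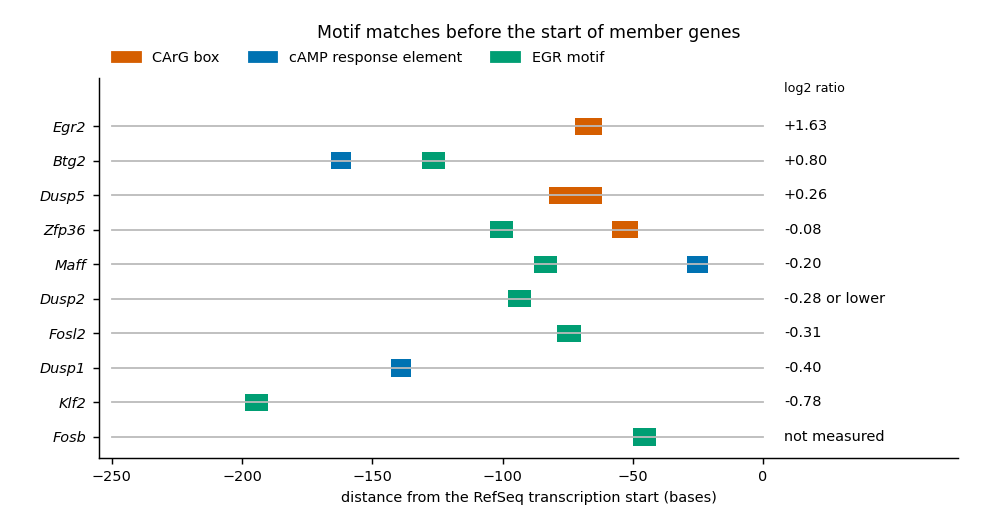
Positions of motif matches in the 250 bases before the RefSeq start site for the 10 member genes that hold one, in bases from the start, ordered by log2 ratio (MED1-null-labelled over control, printed at the right). Genes with a CArG box run from 1.63 to -0.08 and those with a cAMP response element from 0.80 to -0.40.

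AP-1 genes were divided. AP-1 is a dimer of a FOS and a JUN protein, and in epidermis it takes part in both proliferation and differentiation. Fos, the classical inducible member, read 7254 on the MED1-null-labelled array and 6215 on the control array, 1.17-fold higher. Fosl1, which encodes FRA1, read 6015 and 4378, 1.37-fold higher, and its second probe set gave 1.51-fold. Junb, whose product often opposes that of Jun, read 4711 and 3653, 1.29-fold higher. These 3 genes were all higher on the MED1-null-labelled array, each by less than 1.5-fold on the probe set used.

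The other AP-1 genes were lower or near equal. Jund, the JUN gene that is expressed more steadily than its inducible relatives, read 3107 and 4843, 1.56-fold lower on the MED1-null-labelled array, the largest difference in the class. Fosl2, which encodes FRA2, read 3101 and 3850, 1.24-fold lower, with a second probe set that gave 1.23-fold. Jun read 3665 and 3997, and its 2 probe sets lay on either side of 0 (log2 ratios of -0.13 and 0.08), which sets it with the genes of no clear direction. Maff, a small MAF protein without an activation domain, read 428.6 and 493.6, 1.15-fold lower. Fosb was not measured, at 63.2 and 35.8. The class had a median of -0.13 over 7 genes, and the median was 0.05 with no floor or with the floor at the 25th percentile, where Fosb also counted.

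Among the Krüppel-like factors and Myc, 3 of 4 were higher. Klf10, a repressor first found as a TGF-beta response gene, read 2877 and 1853, 1.55-fold higher on the MED1-null-labelled array. Klf6 read 5398 and 4275, 1.26-fold higher, and 4 of its 5 probe sets had a log2 ratio above 0, while the fifth was at -0.01. Myc, a driver of growth and ribosome synthesis, read 2394 and 2141, 1.12-fold higher. Klf2, best known from endothelial cells and lymphocytes, went the other way at 77.1 and 132.3, 1.72-fold lower, and both values are close to the floor.

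Of the remaining immediate early regulators, Btg2 and Ier2 were higher and the other 4 lower or near equal. Btg2, an antiproliferative protein that also recruits the deadenylation machinery to mRNA, read 1354 and 780.2, 1.74-fold higher on the MED1-null-labelled array. Its second probe set read 548.4 and 275.1, 1.99-fold higher, and the TGACGTCA element of its promoter is printed above. Ier2 read 3520 and 2439, 1.44-fold higher, from 1 probe set. Btg1, the paralog of Btg2, read 14214 and 15779, 1.11-fold lower, and its other 2 probe sets were also below 0, down to -0.50.

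Ier5 read 2716 and 3618, 1.33-fold lower, but its 3 probe sets ran from -0.52 to 0.41 in log2 ratio. Zfp36, or tristetraprolin, which binds AU-rich elements in the mRNA of cytokines and immediate early genes and speeds their decay, read 4964 and 5258, 1.06-fold lower. Ier3, a regulator of apoptosis and ERK signalling, had 24127 and 24495, the pair closest to equal among the members. The ratios of Zfp36, Ier3 and Btg1 were each smaller than the pooled SD between probe sets of 0.31.

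The DUSP phosphatases fell into 2 groups by direction. Dusp6, a cytoplasmic phosphatase that is selective for ERK, read 3594 on the MED1-null-labelled array and 2133 on the control array, 1.68-fold higher. Dusp7, its close relative, read 3402 and 2285, 1.49-fold higher, with a log2 ratio of 0.57. The probe set used has a suffix that marks probes shared with other transcripts, and the other 2, whose suffix marks variants of the same gene, gave 0.55 and 0.38. Dusp10, which acts mainly on JNK and p38, read 2831 and 1988, 1.42-fold higher, and its second probe set gave 1.75-fold. Dusp5, a nuclear phosphatase for ERK, read 7892 and 6609, 1.19-fold higher.

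Lower on the MED1-null-labelled array were the nuclear phosphatases Dusp4, Dusp1 and Dusp2. Dusp4 (gene at chr8:34807610-34819894) read 90.8 and 207.8, 2.29-fold lower, from 1 probe set. Its signal on the MED1-null-labelled array was near the floor, and with the floor at the 75th percentile, 434.6, it was not measured. Dusp1, which acts on p38, JNK and ERK and is itself an immediate early gene, read 3472 and 4573, 1.32-fold lower. Dusp2, known from lymphocytes, read 52.4, below the floor, and 82.2, at least 1.21-fold lower. The class as a whole had a median of 0.26 over 7 genes, and the ratio of Dusp5, at 0.26 as well, was smaller than the pooled SD between probe sets.

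Sprouty and SPRED genes stayed within 1.5-fold in either direction. Spry1, an inhibitor of receptor tyrosine kinase signalling, read 500.5 and 347.4, 1.44-fold higher on the MED1-null-labelled array. Spry2 read 687.2 and 752.0, 1.09-fold lower, and Spry4 79.5 and 103.2, 1.30-fold lower with signals close to the floor. The Sprouty genes therefore had no common direction. Spred1, which brings neurofibromin to the membrane to switch Ras off, read 1055 and 1268, 1.20-fold lower, and its 6 measured probe sets ran from -0.69 to 0.25. Spred2 read 1591 and 1427, 1.11-fold higher, and its other 2 measured probe sets gave more, up to 0.73. The class median was -0.13, and 0.01 with the floor at the 75th percentile.

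Etv4 and Etv5, ETS transcription factors of the PEA3 group that are targets of FGF and ERK signalling in many tissues, went in opposite directions. Etv4 read 475.9 on the MED1-null-labelled array and 309.3 on the control array, 1.54-fold higher, with a second probe set at 131.0 and 73.3. Etv5 read 232.0 and 354.6, 1.53-fold lower, with all 3 probe sets between -0.69 and -0.57. Each direction was borne out by every probe set of its gene.

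**Figure D3:**
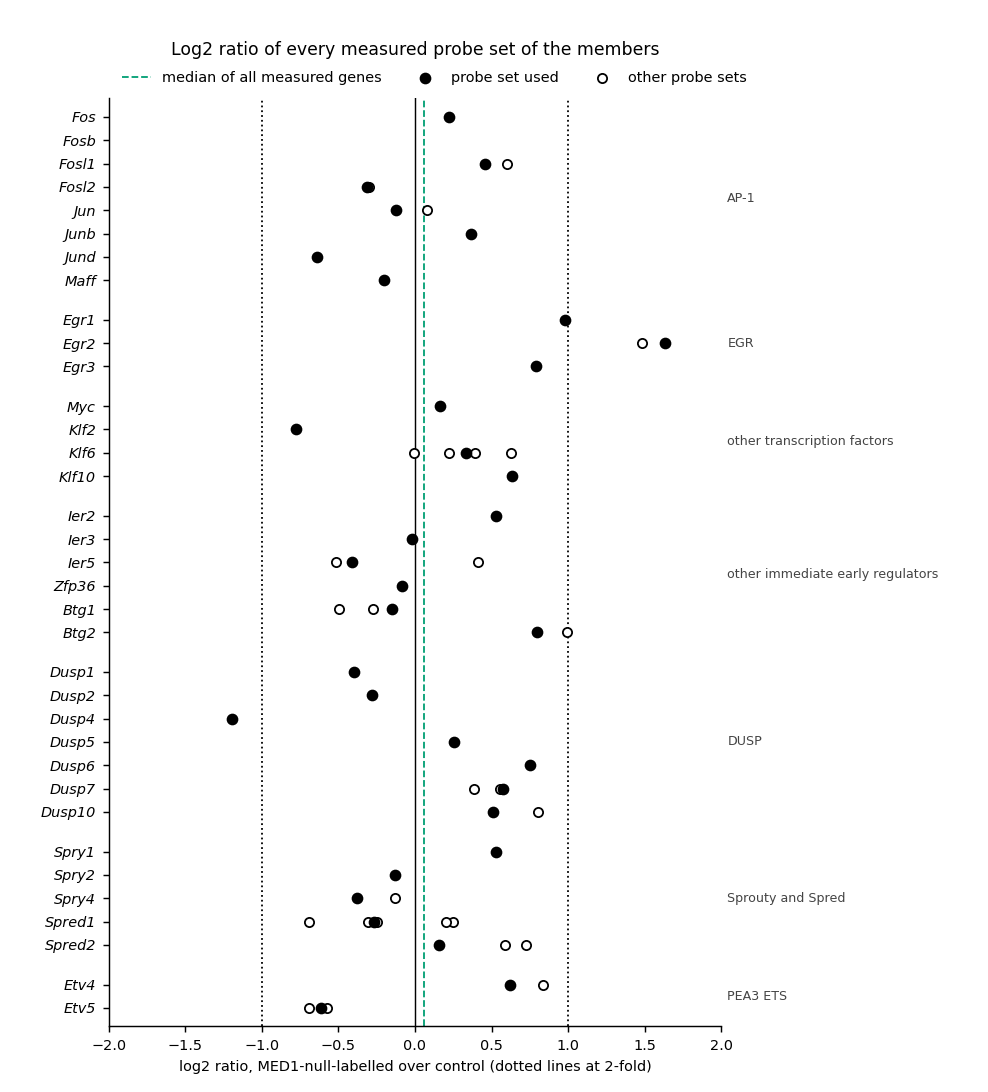
Log2 ratio (MED1-null-labelled over control) of each of the 61 measured probe sets, by gene, with filled circles for the probe set used, open circles for the others, dotted lines at 2-fold and a dashed line at the median of all measured genes, 0.06. Of the 15 genes with several measured probe sets, 11 had all of them on one side of 0, and Jun, Klf6, Ier5 and Spred1 did not.

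The rest of the pathway was read from lists of its other genes. Of all 11621 measured genes, 57.1% were above 0 and 42.9% below, and the shares at least 2-fold higher and lower were the 1.63% and 2.23% given above. Of 32 other measured immediate early genes, 2 were at least 2-fold higher and 2 lower (6.25% each), with 22 above 0 (68.8%) and a median of 0.19. The higher pair were Ccn1, a matricellular protein and target of the serum response factor (7077 against 2830, 2.50-fold), and Tnfaip3, an inhibitor of NF-kB (3902 against 1687, 2.31-fold). The lower pair were Plk3, a stress-responsive kinase (2254 against 5953, 2.64-fold), and Atf3, a stress-induced repressor that binds AP-1 and CRE sites (685.2 against 1716, 2.50-fold). Other immediate early genes, like the members, thus lay in both directions.

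AP-1 partners and relatives had a median of -0.19 over 10 genes, none at least 2-fold higher and Jdp2 2.94-fold lower (255.6 against 751.1). JDP2 is a repressor that dimerises with JUN proteins. The Jdp2 value comes from a probe set whose suffix marks variants of the same gene. With probe sets without a suffix preferred, Jdp2 was not measured. With the floor at the 75th percentile, 434.6, its signal on the MED1-null-labelled array was below the floor. Its ratio was then only a bound, and this bound fell short of 2-fold. Maf, at 202.2 and 380.2, was 1.88-fold lower, Atf4 1.35-fold and Mafk 1.26-fold. Of the 10 genes, 7 (70.0%) were below 0.

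The 29 measured genes of the ERK cascade and its upstream adaptors lay within 2-fold on the probe sets used, 19 of them above 0 (65.5%), with a median of 0.08. A second probe set of Elk4, an ETS partner of the serum response factor, gave 2.10-fold higher, against 1.17-fold on the one used. Sos1, the exchange factor that loads Ras, was 1.60-fold, the receptor Met 1.48-fold, Egfr 1.48-fold and Erbb2 1.41-fold higher, and the probe sets of Sos1 and Egfr disagreed in direction. All 6 measured ligands of the EGF receptor family were above 0, as were 57.1% of all measured genes. Their median was 0.28, with Ereg highest at 1.37-fold (1982 against 1446). Nrg1, Tgfa and Hbegf came next at 1.31-fold, 1.21-fold and 1.21-fold, and the probe sets of Tgfa disagreed in direction (log2 ratios from -0.10 to 0.66). Of the other listed ligands, Areg had no usable probe set and Egf was not measured. Of 15 JNK, p38 and ERK5 kinases, Map2k6, which activates p38, was 2.51-fold lower (70.9 against 178.1, close to the floor, and not measured with the floor at the 75th percentile). Map2k3, its paralog, read 5623 and 9643, 1.72-fold lower, and Mapk13, the p38 delta kinase of epidermis, read 6110 and 9415, 1.54-fold lower. Mapk11, another p38 kinase, was 1.33-fold higher with signals close to the floor, and the list's median was 0.07.

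Other feedback genes of MAP kinases and receptors had a median of 0.03 over 22 genes, and it turned below 0, to -0.05 at the lowest, under all 3 rescalings of the arrays. None was at least 2-fold higher on the probe set used, while the median over probe sets put Cbl, a ubiquitin ligase for receptor tyrosine kinases, 2.03-fold higher. Trib3, better known as an ATF4 target, was 4.56-fold lower (402.8 against 1837), Dusp14 1.93-fold lower (9035 against 17404, and 2.01-fold after rescaling to a median ratio of 1), Tob1 1.52-fold and Dok1 1.42-fold lower. General reference genes had a median of -0.06 over 9 genes, and Ywhaz was farthest from 0 at 1.26-fold lower. Hprt was 1.13-fold higher, Actb 1.10-fold higher and Tbp 1.07-fold lower.

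**Figure D4:**
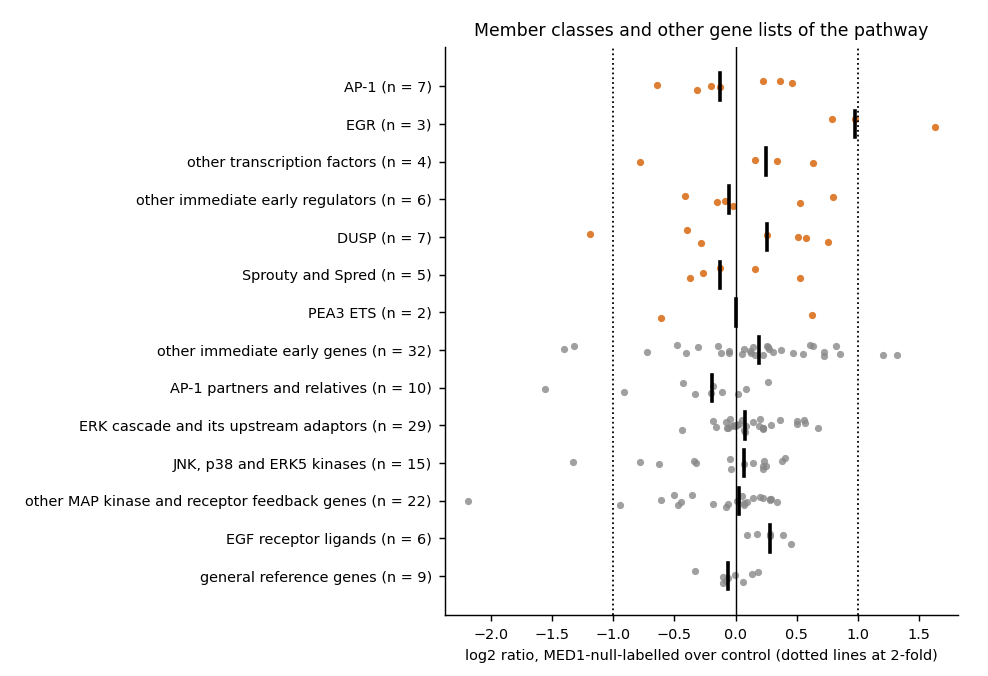
Log2 ratio (MED1-null-labelled over control) of each measured gene, by class of members (orange) and by list of other genes (grey), with the median as a bar and dotted lines at 2-fold. The 3 EGR members stand at 0.79 to 1.63, while each other class of members has genes on both sides of 0.

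The members share features that the choice of genes did not use. They are short genes: the median length in the RefSeq annotation of GRCm38.p6 was 5297 bases, from 1199 bases in Ier3 to 99585 bases in Spred2, against 22767 bases over 11584 measured genes, and 31 of the 35 were shorter than that median. Chromosome 8 holds 5 of them, Dusp4, Jund, Klf2, Ier2 and Junb, which had log2 ratios of -1.19, -0.64, -0.78, 0.53 and 0.37 and so no common direction. Most members were well expressed, and 29 of the 35 reached 434.6, the 75th percentile of all signals, on at least 1 array. With the floor at that level, 0.703% of 6972 genes were higher by 2-fold or more and 1.52% lower. Of the members, Egr2 alone then stayed beyond 2-fold. Its control signal of 322.5 was below this floor, so that its log2 ratio became a bound of at least 1.20, against 1.63 with the main floor.

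**Figure D5:**
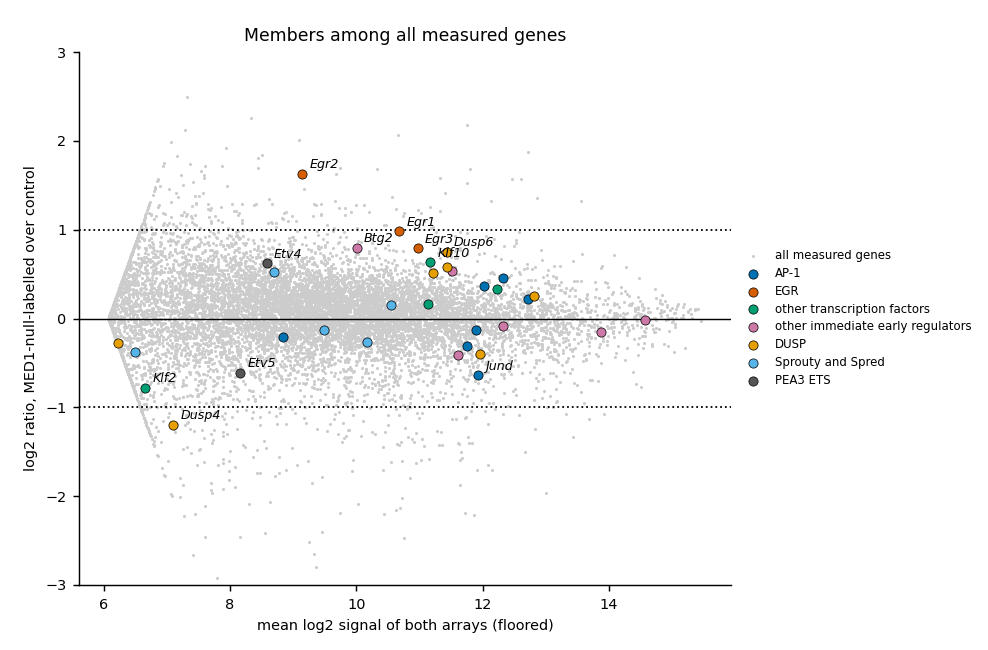
Log2 ratio (MED1-null-labelled over control) against the mean log2 signal of both arrays for all measured genes (grey) and for the 34 measured members (coloured by class, named where at least 1.5-fold apart), with dotted lines at 2-fold. Egr2 stands above the cloud of genes of like signal and Dusp4 lies at low signal, and the axis leaves out 6 genes beyond 3 log2 units.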

How the data were processed

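RNA of 2 keratinocyte cultures was measured on 2 Affymetrix mouse 3′ expression arrays, 1 per group, grouped by the labels' source names. The deposited values are linear signal intensities, 1 per probe set, made by the authors with MAS5 per the submitters' processing notes, in GeneChip Operating Software per the labels' design text. The software version is not given in the sources used here. Both arrays had the same mean, 500.0, once the highest and lowest 2% of signals were set aside, as whole-array scaling gives. Since mismatch signal is subtracted in MAS5, low signals are noisy, hence the floor at 67.7.

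Of 45101 probe sets, 64 were controls, 34945 had 1 symbol in GEO's platform annotation, 932 several and 9160 none. Genes were named only from probe sets with 1 symbol. Gene positions, lengths and promoters came from RefSeq tables of GRCm38.p6, in which all 35 members were found by symbol. Older symbols of other lists were updated through the same table. Ratios, counts and medians were computed in Python 3.11.15 with pandas 2.3.3. The per-gene ratios were tested on simulated arrays, with changes beyond 2-fold planted in genes well above the floor. Smaller changes, genes near the floor, list counts and medians and the motif search were not tested in this way. Counts at 2-fold and 1.5-fold are descriptions, since 1 array per group allows no test.

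All members may be named. Of each other list, up to 4 genes with the ratio farthest from 0, and all beyond 2-fold where 5 or fewer, were named. Egr4, Elk4, Cbl, Batf, Batf3 and Mapk12, and the marker genes given singly, were named outside this rule after their values were seen. Areg was named for its lack of a usable probe set. The members and lists were chosen with earlier results of these data known. Alternatives were 3 floors, 3 rescalings, 2 probe set choices and a 1.5-fold threshold.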

Additional observations from a re-analysis of the deposited data

How the results depend on the processing

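The count of members at least 2-fold higher was 1 and that of members at least 2-fold lower was 1 under the floor at the 25th percentile, no floor, rescaling to a median ratio of 1, quantile normalization, lowess and both other probe set choices. The shares of all measured genes at least 2-fold higher and lower were 6.98% and 5.82% with the floor at the 25th percentile. With no floor they were 12.2% and 10.4%. The 1 member of 35 in each direction lay below these shares. Under the rescalings and probe set choices the shares ran from 1.24% to 1.70% higher and from 1.91% to 2.72% lower. With the floor at the 75th percentile, 434.6, the lower count became 0, because Dusp4 is below that floor on both arrays, and 29 members were measured. With a threshold of 1.5-fold the counts were 7 higher and 4 lower. The median log2 ratio of members ran from 0.10 to 0.20 over 8 alternatives, and that of all measured genes from -0.004 to 0.07. All 34 measured members kept the sign of their log2 ratio under every alternative in which they were measured. Much of this was fixed beforehand, since a floor cannot turn the sign of a probe set's ratio. The probe set choices cannot turn the sign of the 19 members with 1 measured probe set. For these 19, only the 3 rescalings could do so. Of 267 member values so compared, 261 moved by less than the pooled SD between probe sets, 0.31, and 6 by more. Class medians of AP-1, of Sprouty and SPRED and of PEA3 ETS genes changed sign under 2, 1 and 3 of the 8. Among the other lists, Batf3 was 3.62-fold higher (71.7 against 19.8) with the floor at the 25th percentile, 18.1. With that floor Batf was at least 3.51-fold lower (14.9 against 63.5) and Mapk12 at least 2.09-fold lower (6 against 37.8). Both are bounds, since these signals on the MED1-null-labelled array were below 18.1. With no floor they were 4.26-fold and 6.3-fold lower. Of these signals only the 71.7 of Batf3 was above the main floor of 67.7. Maf was 2.03-fold lower after lowess. No paired analysis was possible because each group has 1 array and the labels give no replicate numbers.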
